A study of Mus musculus with 24 samples.

Results

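The genes followed here encode 10 proteins of the extracellular matrix: the adhesive and matricellular glycoproteins Fn1, Tnc, Thbs1, Thbs2, Postn and Sparc, and the elastic fibre proteins Eln, Fbn1, Fbln5 and Mfap4. They were chosen with earlier results of these data known, and matched by name, through the accession or gene name of each probe. All 10 were found, on 20 of 41174 probes. All 10 passed the filter on low signal, as did 20409 of 27401 genes in all. They were measured in mouse lung 24 days after irradiation (IR), on 24 single-colour arrays. The samples fall into 12 groups of 2 biological replicates, 6 irradiated and 6 not irradiated. Irradiated lungs received no drug (IR), 1 drug (IR+Su, IR+Imatinib, IR+Ly) or a pair (IR+Ly+Su, IR+Ly+Imatinib). The counterparts without irradiation are untreated, Su, Imatinib, Ly, Ly+Su and Ly+Imatinib. The question, by the series title, is what blocking TGF-beta and PDGF signals together does in fibrosis of the irradiated lung. Imatinib inhibits the ABL, KIT and PDGF receptor kinases, and Ly and Su are given in the labels in short form only. The strain, sex and age of the mice and the doses of radiation and of the drugs are not given in the sources used here.

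Matricellular proteins are secreted into the matrix, where they bind collagens, growth factors and cell surface receptors and alter how cells attach and signal, and many of them are low in adult tissue and induced during repair. Fibronectin, the product of Fn1, is the adhesive scaffold that integrin-bearing cells assemble into fibrils. Elastic fibres, which let the lung recoil after each breath, consist of a core of cross-linked elastin (Eln) laid down on microfibrils of fibrillin-1 (Fbn1), with fibulin-5 (Fbln5) and microfibril-associated protein 4 (Mfap4) bound to them. Both groups of genes are made in the lung mainly by fibroblasts and other mesenchymal cells, and several are known targets of TGF-beta.

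Levels are log2 values of the processed intensity relative to the 75th percentile of all non-control spots on the same array, so that 0 is the level of that percentile and a difference of 1 is a doubling. Levels of different probes depend on the probe and are not compared with each other. Precision is limited by there being 2 arrays a group. Of the 10 genes, 9 were well above background on all 24 arrays, and Thbs2 was on 18; both untreated and both Su arrays, Ly+Imatinib 1 and Ly+Su 2 were the 6 where it was not. No array had a saturated spot for any of them. Of the 6 slides, each carried either irradiated or unirradiated lungs, so that slide and irradiation cannot be told apart. The lung label was borne out by 6 alveolar epithelial markers (Sftpa1, Sftpb, Sftpc, Ager, Aqp5 and Hopx), all above background on all 24 arrays, with a mean level of 5.78 to 6.29 in irradiated lungs and 6.05 to 6.39 in unirradiated lungs. Array IR 1 stood apart in brightness, with a 75th percentile of 2518 against 704 to 1768 on the other 23. IR+Ly+Imatinib 1 had 330 spots marked as outliers by the scanner software, against at most 80 on the others. For the 10 genes, the main comparisons that rest on these 2 arrays are given with and without them. Differences of other probes, related genes and markers, and all correlations, are given with all arrays only.

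The RefSeq promoter table (GRCm38.p6) held entries for 6 of the 10 genes with 9 transcription start sites, and the 250 bases upstream of each were read. Of the 4 below, Tnc and Thbs2 are shown because they rose most with irradiation, and Fbn1 because it separated every irradiated array from every unirradiated one. Sparc is shown because, with the main processing, its fall in the pooled Su groups kept its call whichever single array was left out. Capitals mark the motifs searched on both strands, which were a TATA box with the letters TATAAA, an AP-1 site with the letters TGANTCA, a SMAD box with the letters CAGACA and a TEAD site with the letters CATTCC.
Tnc, chr4:64046937-64047186, minus strand: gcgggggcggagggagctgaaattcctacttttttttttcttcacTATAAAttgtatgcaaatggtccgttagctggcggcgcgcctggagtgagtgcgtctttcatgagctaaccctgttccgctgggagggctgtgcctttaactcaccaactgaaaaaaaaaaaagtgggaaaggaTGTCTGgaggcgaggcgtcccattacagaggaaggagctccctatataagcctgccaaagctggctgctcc
Thbs2, chr17:14694263-14694512, minus strand: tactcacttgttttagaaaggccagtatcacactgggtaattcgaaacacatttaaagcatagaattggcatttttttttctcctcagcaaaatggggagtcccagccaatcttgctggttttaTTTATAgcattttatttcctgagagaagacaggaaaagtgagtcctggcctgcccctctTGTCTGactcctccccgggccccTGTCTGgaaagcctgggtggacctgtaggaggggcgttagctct
Sparc, chr11:55420081-55420330, minus strand: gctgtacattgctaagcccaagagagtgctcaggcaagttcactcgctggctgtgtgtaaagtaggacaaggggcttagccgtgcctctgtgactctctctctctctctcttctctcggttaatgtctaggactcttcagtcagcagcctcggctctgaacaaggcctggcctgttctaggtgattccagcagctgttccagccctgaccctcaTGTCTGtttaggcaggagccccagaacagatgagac
Fbn1, chr2:125506439-125506688, minus strand: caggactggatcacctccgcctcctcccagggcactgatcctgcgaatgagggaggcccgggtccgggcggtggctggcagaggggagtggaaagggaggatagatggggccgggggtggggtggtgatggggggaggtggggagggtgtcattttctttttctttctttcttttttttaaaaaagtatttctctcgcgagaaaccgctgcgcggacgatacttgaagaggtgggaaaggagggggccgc
In the Tnc window the TATAAA letters began 205 bases upstream of the annotated start and the SMAD box, read on the opposite strand, 71 bases upstream. Only the exact letters TATAAA were searched, so other forms of a TATA box, such as tatataag nearer the Tnc start, are not marked. The Tnc window is that of the second of its listed starts. The Thbs2 window held the TATAAA letters on the opposite strand, 126 bases upstream, and a pair of SMAD boxes on that strand, 67 and 44 bases upstream. The Sparc window held 1 SMAD box, at 36 bases. The Fbn1 window held none of the 4 motifs. Over the 6 genes, a SMAD box was found for 4 (Tnc, Thbs2, Sparc and Fbln5) and the TATAAA letters for 3 (Tnc, Thbs2 and Postn). By window, 4 of the 9 held a SMAD box and 4 the TATAAA letters. The latter include both Tnc windows, which overlap and share the same site. AP-1 and TEAD letters were found in none of these windows. Of 32851 mouse promoter windows of the same length, 17.1% held the SMAD box, 12.4% the TATAAA letters, 6.75% the AP-1 letters and 12.6% the TEAD letters. Such matches describe the letters only.

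Averaged over the 6 drug arms, all 10 genes were higher in irradiated than in unirradiated lungs at an adjusted p under 0.05 (limma, Benjamini-Hochberg over 20409 genes). Of all genes tested, 16.4% were called higher in this comparison. Since the 10 genes were chosen with earlier results of these data known, setting them against this share is not a test. Another background correction, normexp, left 7 of the 10. The median difference over the 10 genes was 0.64, against 0.01 over all genes tested. Tnc, Thbs2 and Eln more than doubled, Fn1 and Fbn1 came next, and the other 5 rose by 0.28 to 0.48 on the log2 scale. The place of Thbs2 in this order rests on a gene near background and did not hold with normexp. In RNA from whole lung, more cells of a type and more RNA per cell cannot be told apart.

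Tnc, which encodes tenascin-C, a matricellular protein low in adult tissue and made anew at sites of repair, showed the largest mean difference of the 10 genes. Its levels were 1.04 and -0.59 in IR lungs, -1.24 and -0.42 in IR+Ly, -1.48 and 0.09 in IR+Imatinib, -2.06 and -2.22 in IR+Su, 0.45 and -1.05 in IR+Ly+Imatinib, and -0.90 and -1.98 in IR+Ly+Su. In unirradiated lungs they were -2.44 and -2.89 (untreated), -2.44 and -2.93 (Ly), -2.21 and -2.64 (Imatinib), -2.85 and -2.66 (Su), -3.46 and -2.55 (Ly+Imatinib), and -2.92 and -2.95 (Ly+Su). Of the 12 irradiated arrays 11 lay above the highest unirradiated array, and the exception was an IR+Su array. The mean level was -0.86 in irradiated and -2.75 in unirradiated lungs, a difference of 1.88 ± 0.25 (SE, limma adjusted p = 0.000143), or 3.69-fold. Among irradiated groups the means fell in the order IR, IR+Ly+Imatinib, IR+Imatinib, IR+Ly, IR+Ly+Su and IR+Su. The arrays of neighbouring groups in this order overlapped, except those of IR+Ly+Su and IR+Su.

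Thbs2, whose product thrombospondin-2 inhibits vessel growth and is required in mice for normal collagen fibril assembly, was close to background in unirradiated lungs. Irradiated arrays ranged from -4.36 to -2.22, with a median of -3.55, and unirradiated arrays from -5.64 to -4.40, with a median of -5.06. No irradiated array overlapped an unirradiated one, which held for 0.392% of all genes in the higher direction. The difference was 1.53 ± 0.17 (limma adjusted p = 3.41e-05). With the normexp background correction in place of that of the scanner software it was 0.19 (adjusted p = 0.651), so that the size of the Thbs2 difference depends on how background is removed.

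Fn1 had levels of 1.44 to 3.19 on irradiated arrays, with a median of 2.00, and 0.62 to 1.75 on unirradiated arrays, with a median of 1.21. The highest irradiated array was IR+Ly+Imatinib 1, and 8 of the 12 irradiated arrays lay above all unirradiated ones. The difference was 0.93 ± 0.15 (limma adjusted p = 0.000482). The other adhesive and matricellular genes moved less. Sparc, whose product binds collagen and aids its deposition, rose by 0.46 ± 0.10 (adjusted p = 0.0029), with arrays at 5.48 to 6.74 in irradiated lungs against 5.27 to 5.80 in unirradiated lungs. Thbs1, whose product thrombospondin-1 can activate latent TGF-beta, rose by 0.48 ± 0.16 (adjusted p = 0.0339), and only 1 of its 12 irradiated arrays lay above all unirradiated ones. Postn, which encodes periostin, an integrin ligand of injured and fibrotic tissue, rose by 0.28 ± 0.09 (adjusted p = 0.0318), with 6 of 12 irradiated arrays above all unirradiated ones.

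Of the elastic fibre genes, Eln changed most and was also the most variable. Its levels were 2.83 and 1.64 in IR lungs, 1.14 and 1.82 in IR+Ly, 0.90 and 3.07 in IR+Imatinib, 0.25 and 0.05 in IR+Su, 3.79 and 1.33 in IR+Ly+Imatinib, and 1.11 and 0.46 in IR+Ly+Su. Unirradiated arrays stayed between -0.37 and 0.49, with a median of 0.11. The SD over arrays was 1.17 in irradiated and 0.28 in unirradiated lungs (n = 12 each), and 9 of 12 irradiated arrays lay above all unirradiated ones. The difference was 1.41 ± 0.28 (limma adjusted p = 0.00202), or 2.67-fold.

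Fbn1 levels were 0.10 to 1.97 on irradiated arrays, with a median of 0.37, and -0.49 to 0.07 on unirradiated arrays, with a median of -0.17. As with Thbs2, no irradiated array overlapped an unirradiated one, although 9 of the 12 irradiated arrays lay at or below IR+Ly 1, at 0.50. The difference was 0.80 ± 0.18 (limma adjusted p = 0.00454). Fbln5, whose product links elastin to microfibrils and cells, rose by 0.30 ± 0.07 (adjusted p = 0.0044). Mfap4 rose by 0.43 ± 0.13 (adjusted p = 0.0202), but 8 of its 12 irradiated arrays lay within the range of the unirradiated ones.

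**Figure D1:**
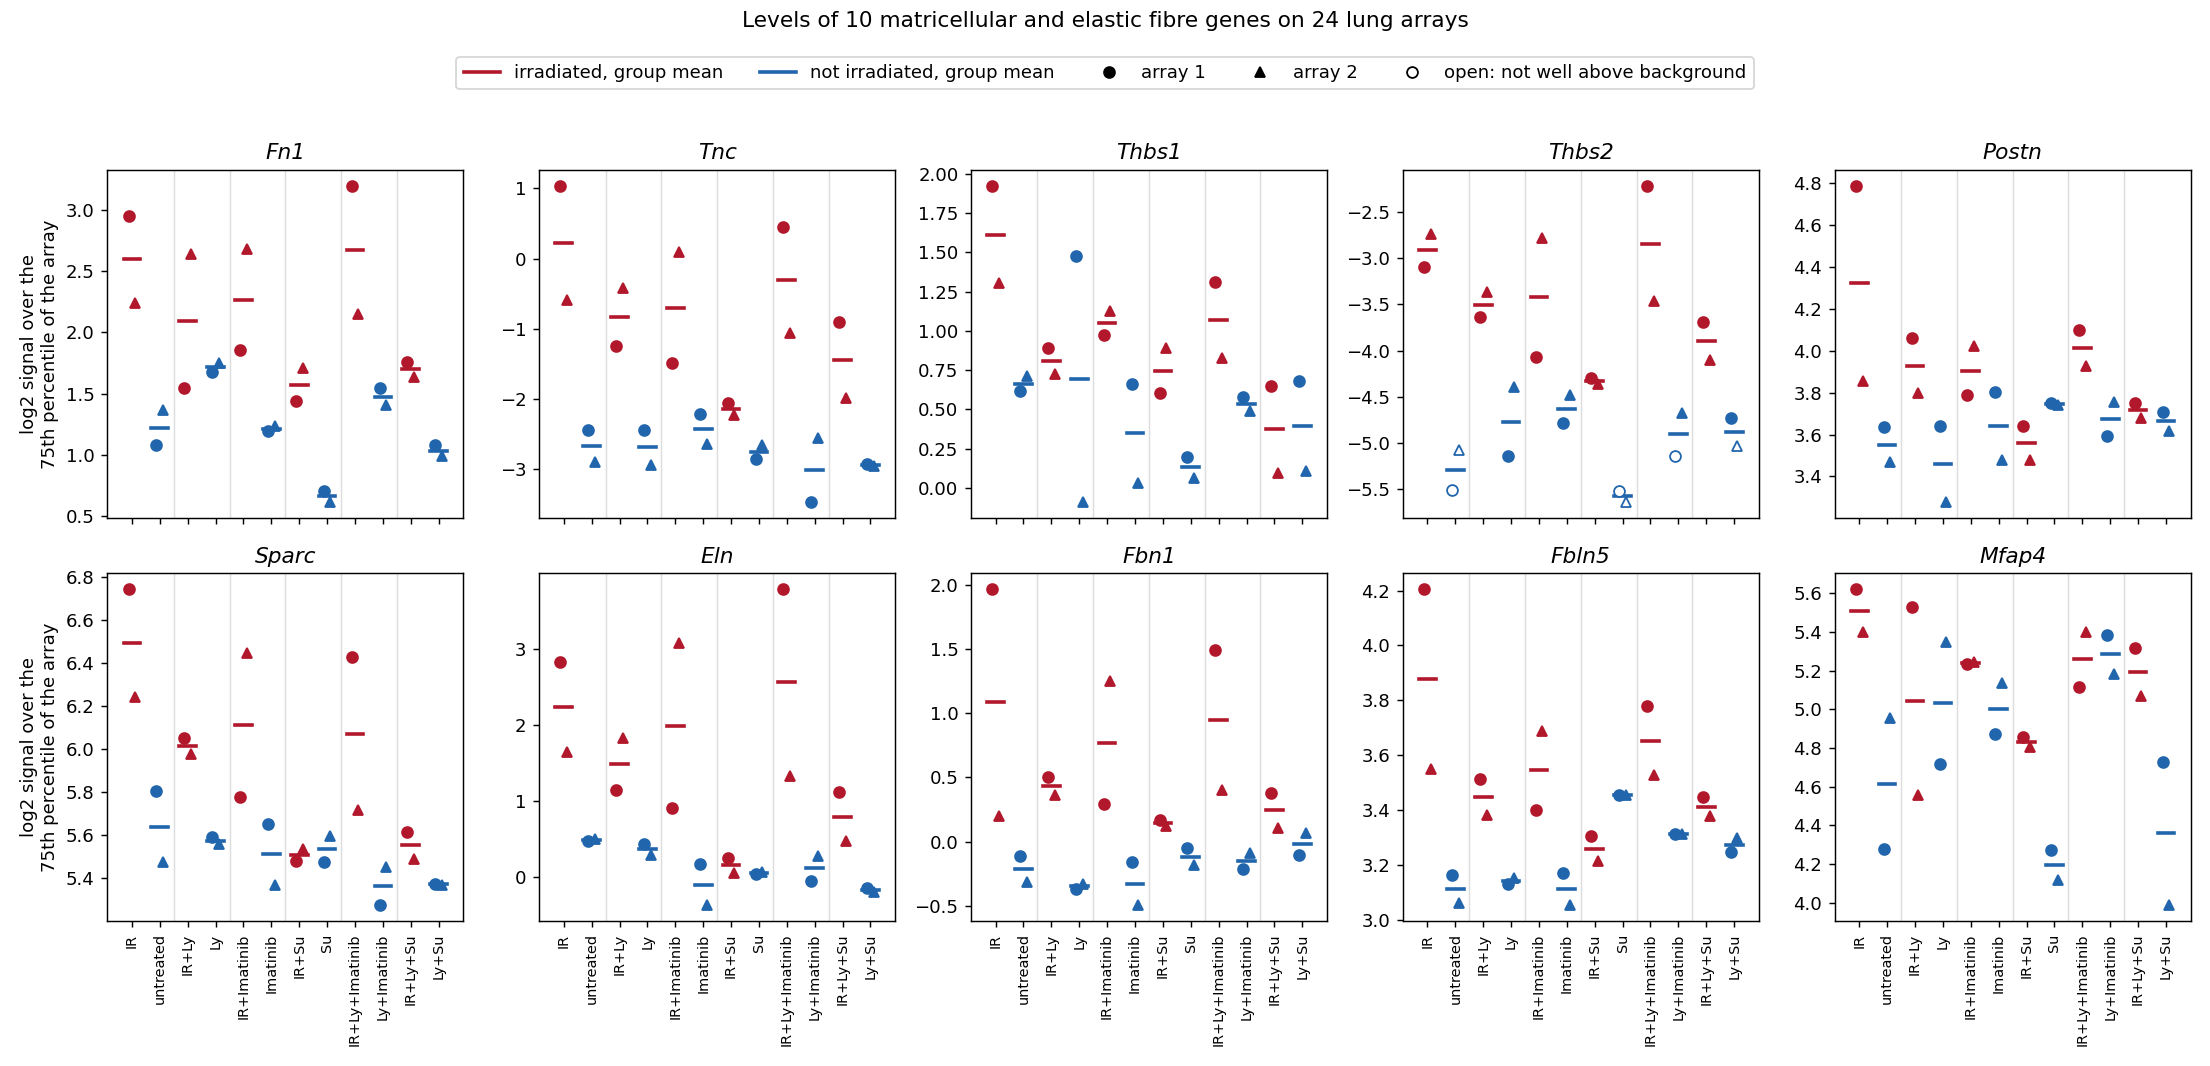
Log2 level relative to each array's 75th percentile (y axis) of the 10 genes, 1 panel a gene, in each drug arm with irradiated lungs to the left of unirradiated ones; points are arrays (open where not well above background) and bars are the means of 2. Thbs2 and Fbn1 have no overlap between irradiated and unirradiated arrays, and Eln spreads from 0.05 to 3.79 among irradiated arrays.

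The mean difference kept its call for 8 of the 10 genes whichever of the 24 arrays was left out, and Thbs1 and Postn lost it in 12 of 24 cases each, with adjusted p up to 0.0701 and 0.0641. With 1 mean per slide, which leaves 3 slides on each side, the differences were of the same size but no gene passed (0 of 10 by limma, 9 at an unadjusted p under 0.05, adjusted p of 0.102 for Thbs2 to 0.318 for Postn). A random block for slide left 6 of 10, and the normexp background correction 7 of 10, with Thbs1, Mfap4 and Thbs2 at adjusted p of 0.0831, 0.0628 and 0.651.

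In the arm without drug, irradiated against untreated lungs, all 10 genes were higher on both IR arrays than on both untreated arrays, as were 22.5% of all genes. By limma 6 of the 10 were called higher, against 7.1% of all genes. They were Tnc, Thbs2, Fn1, Sparc, Postn and Fbln5. Thbs2 had levels of -3.09 and -2.74 in IR lungs and was not well above background in untreated lungs, at -5.51 and -5.08. Its difference was 2.38 (limma adjusted p = 0.00657), of uncertain size since the untreated values were near background. Tnc was 2.89 ± 0.62 higher (adjusted p = 0.013) and Fn1 1.37 ± 0.37 (adjusted p = 0.0281), with Fn1 levels of 2.95 and 2.24 in IR lungs against 1.08 and 1.36 in untreated lungs. Sparc, Postn and Fbln5 were higher by 0.86, 0.77 and 0.76. The 4 that did not pass, Eln (1.76), Fbn1 (1.30), Thbs1 (0.95) and Mfap4 (0.89), had adjusted p of 0.0653 to 0.111.

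These calls rest in part on IR 1, which was the higher of the IR pair for 9 of the 10 genes. Without it, only Thbs2 passed (adjusted p = 0.0468), which was not well above background on either untreated array, the Tnc difference was 2.07 (adjusted p = 0.170) and the Fbn1 difference 0.42 in place of 1.30. Without IR 2, 8 of 10 passed, and without either untreated array 3 or 1. Shares of all genes called are not given beside these leave-out counts, so their shifts cannot be read as particular to the 10 genes. The normexp background correction gave Thbs2 a difference of -0.44 in this arm, the opposite sign.

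The other arms had the same direction for most genes and few calls. In IR+Ly+Imatinib against Ly+Imatinib lungs, Tnc was 2.70 ± 0.62 higher (limma adjusted p = 0.0325) and Thbs2 2.07 ± 0.42 (adjusted p = 0.0178), and these 2 of 10 were called, against 2.24% of all genes (6 of 10 and 20.4% at an unadjusted p under 0.05). Without IR+Ly+Imatinib 1 neither passed (adjusted p of 0.280 for Tnc and 0.192 for Thbs2). The Thbs2 difference was -1.36 in this arm with the normexp correction. Limma called 0 of 10 genes higher in IR+Ly against Ly (0.0196% of all genes), IR+Imatinib against Imatinib (2.41%), IR+Su against Su (4.74%) and IR+Ly+Su against Ly+Su (2.69%), and at an unadjusted p under 0.05 the counts of the 10 were 2 (5.74% of all genes), 7 (18.5%), 2 (27.3%) and 3 (17.8%). Fn1, Tnc, Thbs2, Eln and Fbn1 had a difference above 0 in all 6 arms, as 10% of all genes did, and each of the other 5 in 5 arms.

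In IR+Su against Su lungs the differences of 3 genes were close to or below 0, at -0.19 ± 0.17 for Fbln5, -0.19 ± 0.23 for Postn and -0.03 ± 0.24 for Sparc. Eln stood at 0.10 ± 0.70 in this arm, against 1.76 ± 0.70 without drug. Tnc, at 0.61 ± 0.62, had its smallest difference of the 6 arms here as well. Thbs2 stood at 1.25 ± 0.42 (limma adjusted p = 0.0701), of uncertain size since it was not well above background in Su lungs. The F test of whether the irradiation difference varied with the drug arm called 0 of 10 genes (1.07% of all genes were called), with the smallest adjusted p for Fbln5 (0.211), the 1 gene of 10 at an unadjusted p under 0.05 (18.4% of all genes). Of the single terms, that of Fbln5 in the Su arm against the arm without drug passed (-0.96 ± 0.23, limma adjusted p = 0.0299), 1 of 10 genes against 10.2% of all genes. Without IR 1 this term was -0.63 ± 0.17 (adjusted p = 0.0735).

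**Figure D2:**
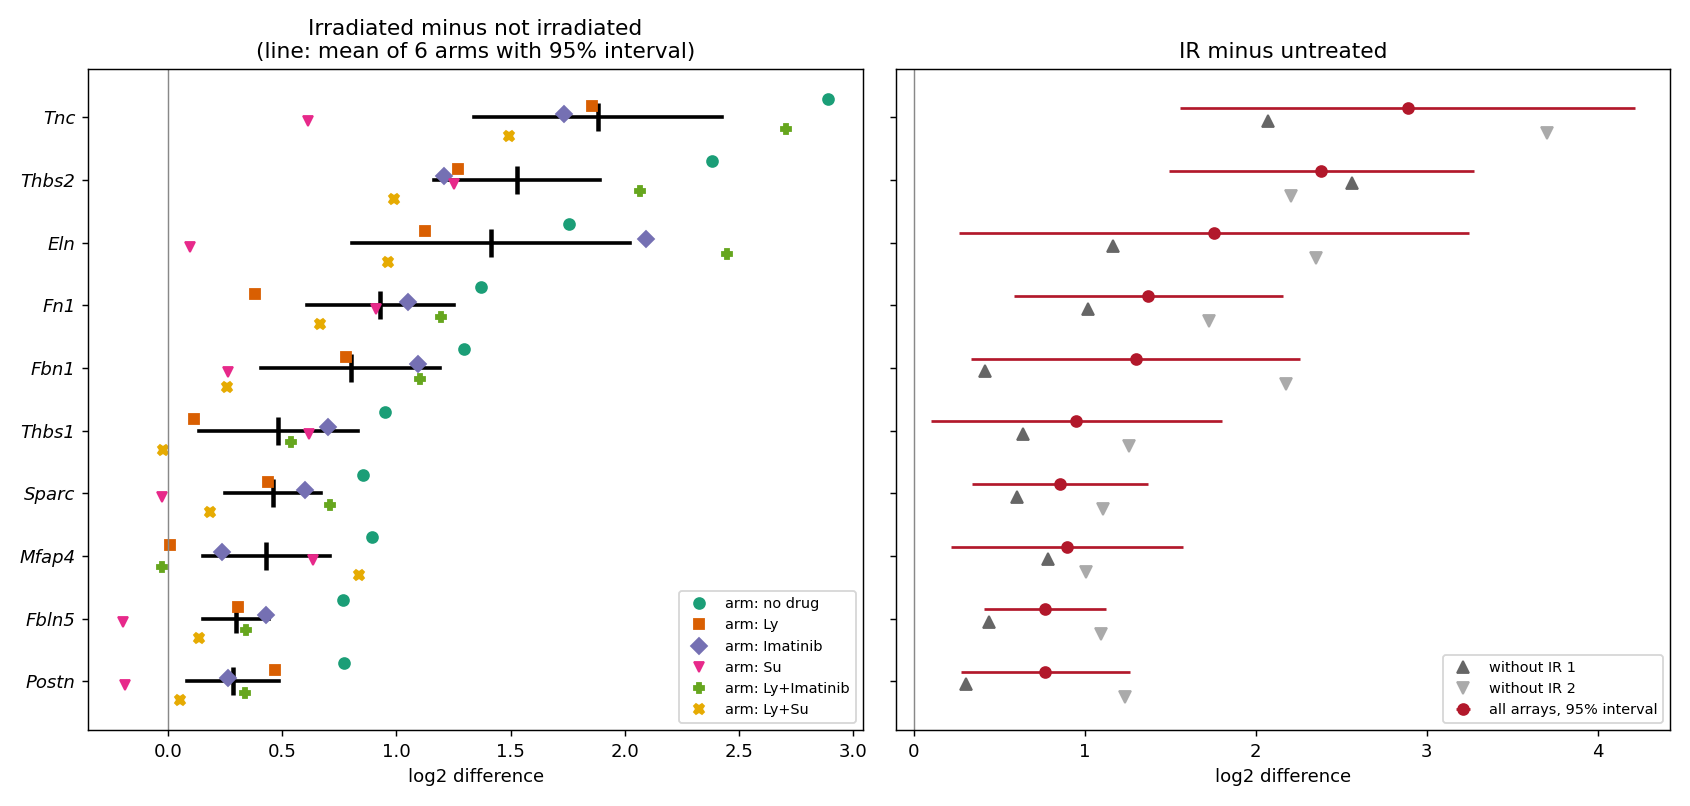
Log2 difference, irradiated minus unirradiated (x axis), of each gene: left, symbols are the 6 drug arms and the black line is their mean with its 95% interval; right, IR minus untreated with its 95% interval and, as triangles, without IR 1 or without IR 2. Tnc, Thbs2 and Eln have the highest means, and in the Su arm Fbln5, Postn and Sparc lie below 0.

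Among irradiated lungs, those given Su had lower levels of several of these genes. Against IR, all 10 genes were lower on both IR+Su arrays than on both IR arrays, as were 33.3% of all genes. Limma called 6 of 10 lower, against 14.8% of all genes. Tnc was 2.36 ± 0.62 lower on the log2 scale, with levels of -2.06 and -2.22 in IR+Su lungs against 1.04 and -0.59 in IR lungs (limma adjusted p = 0.0155). Eln was at 0.25 and 0.05 in IR+Su lungs against 2.83 and 1.64 in IR lungs, a difference of -2.09 ± 0.70 (adjusted p = 0.0408). The IR+Su levels of Eln lay inside the range of unirradiated lungs. Thbs2 (-1.41), Sparc (-0.98), Postn (-0.76) and Fbln5 (-0.62) also fell, and Fn1 (-1.02), Fbn1 (-0.94), Thbs1 (-0.87) and Mfap4 (-0.68) did not pass, with adjusted p of 0.0547 to 0.131. Without IR 1, 0 of 10 passed by limma, and Tnc was at -1.55, Eln at -1.50 and Postn at -0.30.

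In IR+Ly+Su against IR lungs, limma called Sparc (-0.94 ± 0.24, adjusted p = 0.0129) and Thbs1 (-1.24 ± 0.40, adjusted p = 0.0335), 2 of 10 lower against 11.9% of all genes. Thbs1 levels were 0.65 and 0.10 in IR+Ly+Su lungs and 1.92 and 1.30 in IR lungs. All 10 differences were negative, and without IR 1 neither call remained (adjusted p of 0.134 for Sparc and 0.245 for Thbs1).

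Pooling both irradiated Su groups against IR and IR+Ly, limma called 4 of 10 genes lower, against 12.9% of all genes. All IR and IR+Ly arrays lay on 1 slide and the Su and Imatinib groups on others, so that Su or Imatinib against neither inhibitor cannot be told apart from slide. Sparc fell by 0.72 ± 0.17 on the log2 scale (adjusted p = 0.00884), with arrays of 5.48 to 5.62 with Su and 5.98 to 6.74 without, and its call held whichever of the 8 arrays was left out. Tnc (-1.49 ± 0.44, adjusted p = 0.0258), Thbs2 (-0.90 ± 0.29, adjusted p = 0.0385) and Postn (-0.49 ± 0.16, adjusted p = 0.042) fell as well. Leaving out each of the 8 arrays in turn, Tnc kept its call in 3 cases (adjusted p up to 0.110), Postn in 1 (up to 0.152) and Thbs2 in 0 (0.0596 to 0.119). Eln, at -1.39 ± 0.49, just missed the threshold (adjusted p = 0.0518), although its 4 arrays with Su (0.05 to 1.11) lay below the 4 without (1.14 to 2.83). Under the normexp correction none of the 10 passed for pooled Su, with Sparc at an adjusted p of 0.0569, and under quantile normalization only Tnc and Thbs2 did.

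Imatinib and Ly were not followed by a detectable difference in these genes. Imatinib was pooled like Su, and Ly over 3 pairs of groups. Limma called 0 of 10 genes with Imatinib, against 13.4% of all genes in either direction, and 0 of 10 with Ly, against 3.52%. At an unadjusted p under 0.05 there were 0 of 10 for each, against 32.3% of all genes for Imatinib and 13.3% for Ly. The 95% interval of the Imatinib difference was -1.13 to 0.75 for Tnc, -0.64 to 1.47 for Eln and -0.53 to 0.20 for Sparc. The Ly intervals were -0.76 to 0.78 for Tnc, -0.71 to 1.01 for Eln and -0.46 to 0.14 for Sparc. Against IR, limma called 0 of 10 genes for IR+Ly (0.921% of all genes in either direction), IR+Imatinib (13.3%) and IR+Ly+Imatinib (19.5%), with 1 (24.8% of all genes), 0 (35.6%) and 0 (37.8%) at an unadjusted p under 0.05. These comparisons, like those of the Su groups, share the same IR arrays, and IR+Ly shared its slide with IR.

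**Figure D3:**
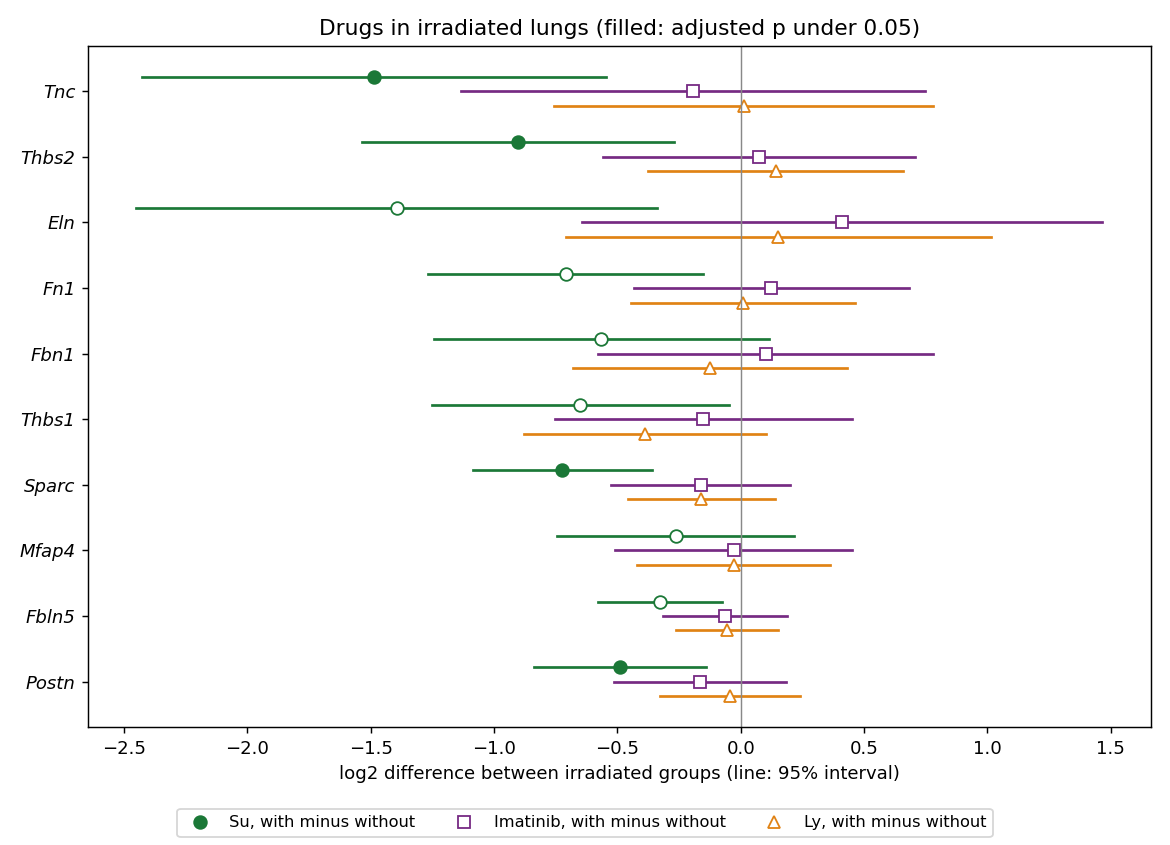
Log2 difference with minus without Su, Imatinib or Ly among irradiated lungs (x axis) for each gene, pooled over groups; lines are 95% intervals, and filled symbols have an adjusted p under 0.05. The Su values run from -1.49 (Tnc) to -0.26 (Mfap4), and those of Imatinib and Ly lie between -0.39 and 0.41.

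A direct comparison of the single agents was possible on 1 slide. IR+Imatinib lungs had higher levels than IR+Su lungs on both arrays for all 10 genes, which held for 33.8% of all genes. Limma called 0 of 10 (0.0784% of all genes were called), with 4 at an unadjusted p under 0.05 (8.78% of all genes). Eln differed by 1.84 ± 0.70 (adjusted p = 0.465, 95% interval 0.35 to 3.33), Tnc by 1.45 ± 0.62 (0.11 to 2.78), Thbs2 by 0.90 ± 0.42 (0.01 to 1.80) and Sparc by 0.60 ± 0.24 (0.09 to 1.12). The combinations set against their single agents gave 0 calls each by limma for the 10 genes and 0 at an unadjusted p under 0.05, in IR+Ly+Imatinib against IR+Ly (3.34% of all genes called) and IR+Imatinib (1.4%), and in IR+Ly+Su against IR+Ly (3.17%) and IR+Su (3.27%). At the unadjusted threshold these comparisons held 17.8%, 10.1%, 17% and 8.99% of all genes. The widest interval was that of Eln in each, for example -0.42 to 2.56 for IR+Ly+Imatinib against IR+Ly.

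In lungs that were not irradiated the drugs were not followed by a detectable difference either. Limma called 0 of 10 genes, with 0 at an unadjusted p under 0.05, for Ly (0.0049% of all genes called in either direction), Imatinib (0.333%), Su (2.72%), Ly+Imatinib (2.47%) and Ly+Su (0.701%) against the same untreated arrays. At the unadjusted threshold the shares of all genes were 5.67%, 10.3%, 17.3%, 17.2% and 13.2%. The nearest was Mfap4 in Ly+Imatinib lungs, with levels of 5.38 and 5.18 against 4.28 and 4.95 in untreated lungs, a difference of 0.67 ± 0.32 (adjusted p = 0.299). Su alone left Fbln5 0.34 ± 0.17 above untreated lungs (adjusted p = 0.311), with 3.45 on both arrays against 3.16 and 3.06, which is opposite in sign to the fall between IR+Su and IR lungs.

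Of the 20 probes, 10 were additional probes of Fn1, Tnc, Thbs1, Sparc, Fbn1 and Fbln5, and 9 of these passed the filter; the other Fbln5 probe was above background on no array. In a fit over all 30484 probes that passed, 8 of the 9 were called higher in the mean irradiation comparison, and the second Fbln5 probe missed the threshold (0.57 ± 0.21, adjusted p = 0.0524). The other Tnc probes gave 2.78 ± 0.28 and 2.20 ± 0.29, the other Fn1 probes 1.18 ± 0.19 and 1.26 ± 0.28, and the other Thbs1 probes 0.65 ± 0.14 and 0.79 ± 0.19. The second Fbn1 probe gave 1.00 ± 0.14 and the second Sparc probe 0.44 ± 0.07. Both probes of Fbn1 and of Sparc, and all 3 of Tnc, Fn1 and Thbs1, thus passed in this comparison. The calls on the other Tnc probes rest on unirradiated values near background.

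In IR against untreated lungs fewer of the other probes passed. The other Fn1 probes stood at 1.14 ± 0.46 (limma adjusted p = 0.107) and 1.00 ± 0.69 (adjusted p = 0.319), and the second Sparc probe at 0.41 ± 0.17 (adjusted p = 0.108), against 0.86 on the main one. The second Fbn1 probe passed (1.11 ± 0.33, adjusted p = 0.0447), where the main one did not. One other Tnc probe (adjusted p = 0.0293) and the second Fbln5 probe (adjusted p = 0.037) passed, and neither was well above background on an untreated array. The last Tnc probe, not well above background on any of these 4 arrays, did not pass, nor did the other Thbs1 probes (0.38 and 0.53, adjusted p of 0.463 and 0.434).

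The fall with Su was not seen on all probes. For pooled Su the other Tnc probes, above background on 7 and 6 of 24 arrays, stood at -0.04 ± 0.48 and -0.23 ± 0.51, and 0 of the 9 probes passed by limma. The second Sparc probe, bright on all 24 arrays, was at -0.25 ± 0.12 (adjusted p = 0.141). The second Fbn1 probe was at -0.04 ± 0.24, with levels of -2.05 and -2.07 in IR+Su lungs and -1.90 and -2.08 in IR lungs, where the main probe had 0.17 and 0.12 in IR+Su lungs and 1.97 and 0.20 in IR lungs. IR 1 stood high on the main Fbn1 probe but not on the second one. The second Fbln5 probe was not well above background on either IR+Su array, and it was higher on IR 2 (-2.78) than on IR 1 (-4.94), where the main probe was higher on IR 1 (4.21) than on IR 2 (3.55).

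In 4 of the 6 irradiated groups 1 replicate lay above the other for at least 9 of the 10 genes. Of all genes, 55% in IR, 45.7% in IR+Imatinib, 49.4% in IR+Ly+Imatinib and 53.5% in IR+Ly+Su lungs were higher on replicate 1. IR+Imatinib 2 lay above IR+Imatinib 1 for all 10 genes, with differences of up to 2.17 (Eln), and IR+Ly+Su 1 above IR+Ly+Su 2 for all 10. IR+Ly+Imatinib 1 lay above IR+Ly+Imatinib 2 for 9 of 10, Mfap4 being the exception, and IR 1 above IR 2 for 9, Thbs2 being the exception. The median absolute difference between replicates was 0.75 in IR+Imatinib, 0.88 in IR+Ly+Imatinib and 0.68 in IR over the 10 genes, against 0.16, 0.17 and 0.45 over all genes. The 10 genes split 6 to 4 in IR+Ly lungs, with differences of -1.09 to 0.97, and 7 to 3 in IR+Su lungs, with differences of -0.29 to 0.20. The median absolute difference was 0.26 in IR+Ly, 0.12 in IR+Su and 0.26 in IR+Ly+Su lungs, against 0.22, 0.11 and 0.11 over all genes. In the unirradiated groups it was 0.09 to 0.31, against 0.09 to 0.26 over all genes.

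Over the 24 arrays, Pearson's r between pairs of the 10 genes ran from 0.36 (Postn with Mfap4) to 0.93 (Tnc with Eln), over arrays that share the irradiation contrast. After each group's mean was removed, which leaves the deviations of replicates, Fbn1 and Fbln5 had r = 0.97, Tnc and Eln 0.91, and Sparc and Eln 0.90. Mfap4 was the gene that stood apart, with r of -0.28 to 0.11 with the other 9. Thbs1 and Thbs2, the related thrombospondins, had r = 0.57 over all arrays and -0.09 after group means were removed. These correlations are descriptions over arrays of 12 groups. Those within groups rest on 1 difference between replicates per group. That of the IR pair was the widest for Fbn1 (levels of 1.97 and 0.20) and for Fbln5 (4.21 and 3.55). No correlation is given without IR 1 or IR+Ly+Imatinib 1.

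By the same measure, the genes most like Tnc over the 24 arrays were Mybpc2 (r = 0.965) and the collagen genes Col5a2 (0.961) and Col1a1 (0.960). Eln was most like Col5a2 (0.972), Col4a1 (0.965) and Col1a1 (0.947), and Sparc most like Fstl1 (0.968), Col3a1 (0.964) and Spock2 (0.959). Fbn1, Fbln5 and Postn each had Tmem45a among their 3 nearest genes (0.960, 0.944 and 0.925). Of the genes compared, Mfap4 had none nearer than Car4 (0.752) and Thbs1 none nearer than Abcb1b (0.829).

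Other genes of the same pathways were counted by list. The counts are read against the shares of all genes tested, which were 16.4% called higher and 16.4% called lower in the mean irradiation comparison, 7.1% and 7.29% in IR against untreated lungs, and 12.2% and 12.9% for pooled Su. Of 19 further elastic fibre and microfibril genes, 7 rose and 3 fell in the mean irradiation comparison, with a median difference of 0.08. Mfap5, a microfibril glycoprotein, rose by 0.97 ± 0.16, and the elastin cross-linking enzymes Loxl1 and Lox by 0.68 ± 0.10 and 0.62 ± 0.19. Emilin1, which sits at the surface of elastic fibres, rose by 0.54 ± 0.09. Ltbp4, a latent TGF-beta binding protein of the microfibril, fell (-0.32 ± 0.08), as did Mfap2 (-0.27). Mfap1a, which fell as well (-0.22), is on the list by its name, and no role in the microfibril is taken for it. In IR against untreated lungs 2 of the 19 rose, among them Mfap5 (1.71 ± 0.39), and 5 fell, among them Adamts10 (-1.01 ± 0.26), Adamtsl4 (-0.96 ± 0.29) and Ltbp4 (-0.84 ± 0.19).

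Of 25 further matricellular genes 21 were tested, and 8 rose and 1 fell in the mean irradiation comparison, with a median difference of 0.21. The CCN family of connective tissue growth factor relatives made up 5 of the 8: Ccn5 (1.33 ± 0.14), Ccn4 (1.16 ± 0.20), Ccn3 (0.71 ± 0.09), Ccn2 (0.57 ± 0.11) and Ccn1 (0.33 ± 0.12). Vtn, which encodes vitronectin, a plasma adhesive protein, fell (-0.65 ± 0.16). In IR against untreated lungs 4 of the 21 rose, among them Spp1, which encodes osteopontin (2.25 ± 0.27), and 4 fell, among them Tnn and Tnxb, relatives of Tnc (-3.10 ± 0.78 and -1.35 ± 0.34). With all arrays, the tenascin genes thus had calls in opposite directions without drug. The Tnc call rests in part on IR 1, without which its difference was 2.07 in place of 2.89. Differences of Tnn and Tnxb without IR 1 are not given.

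Of 18 integrins and other receptors of these proteins, 4 rose and 3 fell with irradiation on average. Itgb6 and Itgb8, the partners of the alpha v integrins that activate latent TGF-beta, rose by 0.87 ± 0.18 and 0.53 ± 0.11, and Itga2, a collagen receptor subunit, by 0.42 ± 0.13. Itga1, another collagen receptor subunit, fell (-0.39 ± 0.10), as did Cd36, a receptor for thrombospondin-1 (-0.32 ± 0.07). Of 14 elastin-degrading proteases and inhibitors 10 were tested, and 5 rose and 1 fell. Mmp12, the macrophage elastase, rose by 1.27 ± 0.17, the inhibitor Timp1 by 1.03 ± 0.23 and the elastolytic cathepsin Ctsk by 0.92 ± 0.22, while Mmp9, a gelatinase, fell (-1.02 ± 0.32). For pooled Su among irradiated lungs, 4 elastic fibre genes fell and 1 rose (Lox at -1.40 ± 0.34 and Mfap5 at -1.27 ± 0.28 fell), 4 matricellular genes fell (Spp1 at -2.04 ± 0.19), 4 proteases and inhibitors fell (Timp1 at -1.86 ± 0.39 and Mmp12 at -1.71 ± 0.30), and 2 receptors rose (Itga4 at 1.48 ± 0.21).

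**Figure D4:**
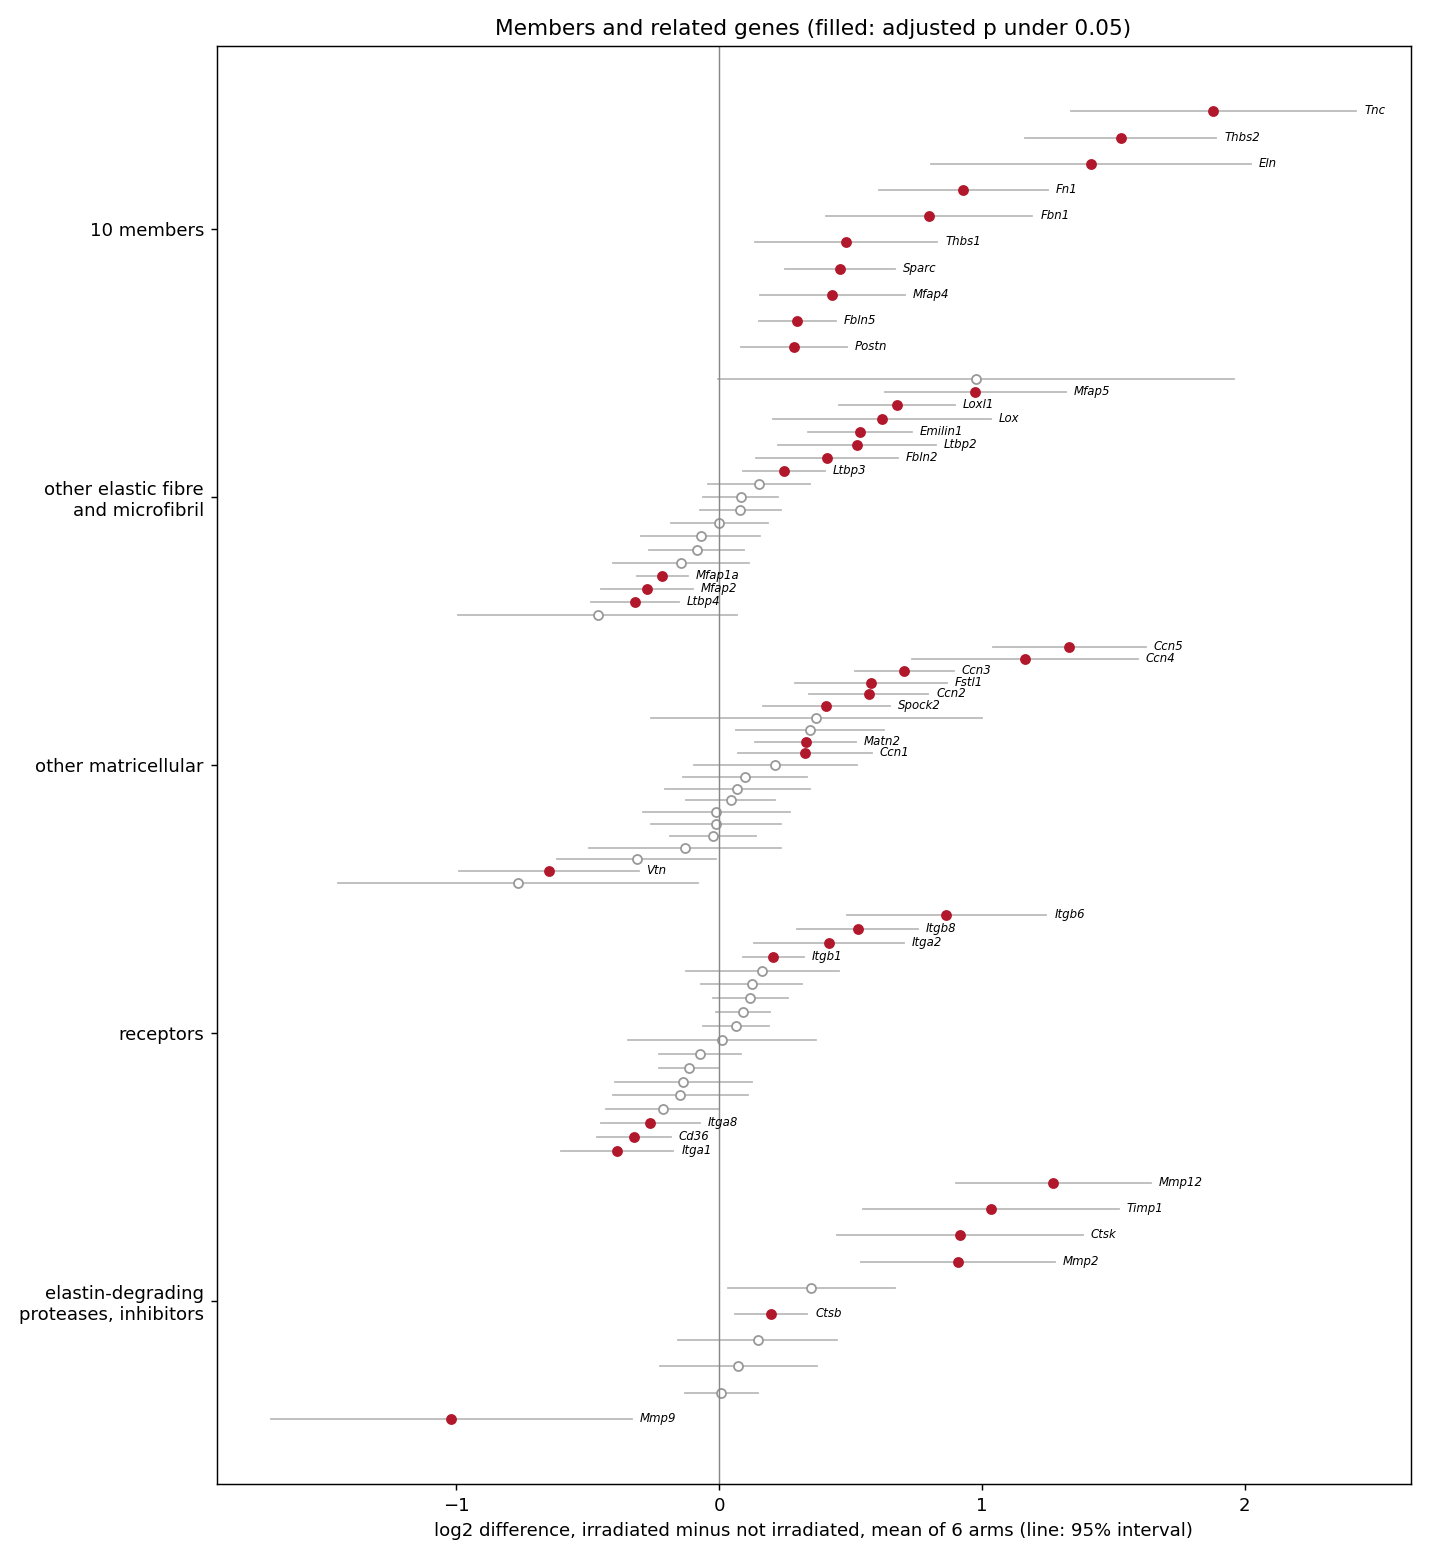
Log2 difference, irradiated minus unirradiated, mean of the 6 drug arms (x axis), of the 10 genes and of 4 lists of related genes, 1 point a gene with its 95% interval; filled points are called and named. All 10 genes lie above 0, and the lists hold calls on both sides of it.

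Markers of the cell types in the sample were measured beside these genes. Of 9 fibroblast markers tested, Col1a1 (0.97 ± 0.16) and Col3a1 (0.78 ± 0.15) rose and Pi16 (-0.64 ± 0.15) fell in the mean irradiation comparison. The rest had no call, with Pdgfra, Pdgfrb and Tcf21 at -0.09, -0.11 and -0.20 and Dcn, Lum and Fap at 0.69, 0.25 and 0.09. The mean level of the list ran from 0.36 to 1.35 in irradiated and from 0.44 to 0.72 in unirradiated lungs, and was highest on IR 1 and IR+Ly+Imatinib 1, the arrays on which Fn1 was highest too. Of 6 smooth muscle and myofibroblast markers limma called 0 (Acta2 at 0.06 ± 0.10), with a list level of 1.94 to 2.92 in irradiated and 1.95 to 2.71 in unirradiated lungs. Platelets are a source of thrombospondin-1, and of 5 platelet and megakaryocyte markers limma called 0, with a list level of 0.30 to 2.20 in irradiated and 0.44 to 2.72 in unirradiated lungs.

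Most macrophage and mast cell markers changed in the same direction as the genes in the group comparisons. Of 6 macrophage markers 4 rose on average with irradiation and 5 fell with pooled Su, and their mean level ran from 1.40 to 2.75 in irradiated and from 1.06 to 2.09 in unirradiated lungs. Csf1r was called in neither comparison (0.01 and 0.29). All 4 mast cell markers rose with irradiation, Cpa3 by 2.59 ± 0.40, and 3 of 4 fell with pooled Su. Their mean level was -3.81 to 1.58 in irradiated and -4.80 to -3.72 in unirradiated lungs, with the highest value on IR 1. Between replicates the mast cell level followed the genes in IR (1.58 and -1.43 on arrays 1 and 2) and IR+Imatinib lungs (-2.68 and -1.54), but not in every group. It was -3.41 and -0.84 on IR+Ly+Imatinib 1 and 2, and -3.73 and -2.06 on IR+Ly+Su 1 and 2. In these groups 9 and 10 of the 10 genes were higher on array 1. The macrophage level was higher on the same array as most of the genes in all of the groups just named. It was 2.75 and 2.21 in IR, 1.56 and 2.02 in IR+Imatinib, 1.97 and 1.43 in IR+Ly+Imatinib, and 1.55 and 1.40 in IR+Ly+Su lungs. Of the 4 mast cell markers, Tpsb2 was above background on 11 arrays and Cpa3 on 20. Of the fibroblast list, Col1a2 and Dcn were above background on 3 and 4 arrays. Of the other lists, Col2a1, a cartilage collagen, rose by 2.32 ± 0.19 with irradiation on average (limma adjusted p = 2.02e-06), 1 of 3 cartilage markers tested. Of 6 endothelial markers Kdr rose (0.21) and Tek (-0.46) and Cldn5 (-0.22) fell. Aqp5 (-0.20) and Hopx (-0.22) fell among 6 alveolar markers, Tppp3 (-0.60) and Cyp2f2 (-0.25) among 4 airway markers, Upk3b (-0.33) among 4 mesothelial markers and Myl7 (-1.29) among 4 cardiac muscle markers. Acta1 (0.41) and the dim Myh2 (mean level -4.97 in irradiated and -5.77 in unirradiated lungs) rose among 4 skeletal muscle markers, and of 3 adipose markers tested limma called 0. With pooled Su, Col3a1 (-0.94), Fap (-0.73), Aqp5 (-0.38) and Myh2 fell, and Kdr (0.76), Lrrn4 (0.75), Myh6 (2.01), Ckm (1.75) and Plin1 (0.93) rose. The part of these cell types in the differences of the 10 genes was not tested.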

How the data were processed

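The authors deposited 1 scanner file for each of the 24 arrays, with intensity values that Agilent Feature Extraction 9.1.3.1 had background-subtracted, per the file headers. Per the labels, 500 ng of total RNA of shock-frozen lung was labelled with Cy3. The authors' series table differs from these by a constant for each array, within ratios of 0.995 to 1.005.

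Here, spots of a probe were averaged, 619 of 41174 probes with outlier spots dropped, and log2 of the intensity taken minus log2 of each array's 75th percentile, with no pseudocount. The probe with the highest mean stood for a gene. A gene was tested when well above background on both arrays of at least 1 group. Groups come from the sample titles. The test was limma 3.58.1 under R 4.3.3 (lmFit and eBayes, 1 mean per group, 12 residual and 2.08 prior degrees of freedom), two-sided, with Benjamini-Hochberg adjustment over 20409 genes and a threshold of 0.05. The script was tested on simulated data. Genes are named by rule: all 10 in every comparison, and of each list up to 4 by size among those called, plus a few more, chosen with their values known. The 10 genes and all lists were chosen with earlier results of these data known. Intensities are not counts, so no depth is given. The alternatives were normexp, quantile normalization, other filters, other probes, the series table, blocks for replicate and slide, smaller sets of groups and leaving out arrays.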

Additional observations from a re-analysis of the deposited data

Results flagged for a closer look

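The irradiation difference of Fbln5 passed a test against the arm without drug in the Su arm, as the 1 gene of the 10, a share no greater than that of all genes. In the Su arm it was -0.19 ± 0.17 (IR+Su levels of 3.30 and 3.21 against 3.45 and 3.45 in Su lungs), and without drug it was 0.76 ± 0.17 (IR levels of 4.21 and 3.55 against 3.16 and 3.06 in untreated lungs). The difference between these differences was -0.96 ± 0.23, with an adjusted p of 0.0299 by limma over 20409 genes, of which 10.2% were called by the same test. The F test over all 5 drug arms did not call Fbln5 (adjusted p = 0.211). IR 1, at 4.21, was the highest of the 24 arrays for Fbln5. Without IR 1 the term was -0.63 ± 0.17 (adjusted p = 0.0735). Over the 8 arrays left out in turn it ran from -1.29 (without IR 2) to -0.63, and it passed in 2 cases, without IR 2 and without untreated 1. Under quantile normalization it was -0.64 (adjusted p = 0.0659) and under the normexp correction -1.36 (adjusted p = 0.025).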

How the results depend on the processing

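All counts are of the 10 genes that limma called. The share of all genes called changes with the setting too and is not given beside them. For the term of the Su arm against the arm without drug it was 10.2% with the main processing. It was 16.3% with normexp and 5.22% with quantile normalization. A shift in a count can thus not be read as particular to the 10 genes. Slide as a random block (consensus correlation 0.142) left 6 for the mean irradiation difference and 1 mean per slide left 0 (9 at an unadjusted p under 0.05); slide could not be used as a block elsewhere. The normexp correction gave 5 for IR+Ly+Imatinib against Ly+Imatinib, 3 for IR+Su against IR, 0 for IR+Ly+Su against IR and 0 for pooled Su, and turned Thbs2 to -0.44 in IR against untreated lungs and -1.36 in IR+Ly+Imatinib against Ly+Imatinib lungs. Quantile normalization gave 2 for IR+Su against IR, 1 for IR+Ly+Su against IR and 2 for pooled Su. Requiring signal on all 24 arrays, which leaves out Thbs2, gave 1 for IR+Ly+Imatinib against Ly+Imatinib. The second brightest probes gave 2 for IR+Imatinib against Imatinib, 2 for IR+Su against Su, 1 for IR+Ly+Su against Ly+Su, 0 for IR+Ly+Su against IR and 2 for pooled Su. Leaving out both IR 1 and IR+Ly+Imatinib 1 gave 1 for IR against untreated, 0 for IR+Ly+Imatinib against Ly+Imatinib, 1 for IR+Su against IR, 0 for IR+Ly+Su against IR and 2 for pooled Su. Fitting the 2 groups alone gave 0 for IR against untreated, 5 for IR+Su against Su, and 0 for IR+Ly+Imatinib against Ly+Imatinib, IR+Su against IR and IR+Ly+Su against IR. The slide means, the removal of both arrays and the mean over the 5 drug arms (8 of 10 called) were chosen after seeing the data. Leaving out 1 array at a time gave 8 to 10 for the mean, 1 to 8 for IR against untreated, 0 to 4 for IR+Imatinib against Imatinib, 0 to 5 for IR+Ly+Imatinib against Ly+Imatinib, 0 to 4, 0 to 3, 0 to 7, 0 to 3 and 0 to 7 for IR+Ly, IR+Imatinib, IR+Su, IR+Ly+Imatinib and IR+Ly+Su against IR, 0 to 1 for pooled Imatinib, 1 to 7 for pooled Su and 0 to 2 for the interaction; the highest value came without IR 2 for IR against untreated, IR+Su against IR and pooled Su. The replicate numbers mark no pairing in the labels, and same-numbered arrays deviated together little (median r 0.036 over 66 pairs of groups, -0.202 to 0.251); with the replicate block the count for IR+Ly+Su against IR was 4. The causes of these shifts were not tested beyond what each alternative leaves out.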
